A study of Mus musculus with 3 samples.

Results

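Wnt pathway genes were examined in CT26.WT cells, a mouse colon carcinoma cell line, after exposure to recombinant S100a8 or S100a9. The list held 42 genes in 8 role groups: Wnt ligands, receptors, Dishevelled proteins, the destruction complex with beta-catenin, TCF/LEF factors, R-spondin receptors with their ubiquitin ligases, feedback inhibitors and target genes. Members were all probe sets whose single gene symbol in the platform annotation is exactly one of these names. This gave 100 probe sets for 40 of the 42 genes, out of 18194 genes named on the array. No probe set carried the symbol Tcf7 or Ephb2 in that annotation, so these genes have no signals here and enter only the promoter counts. The S100a8 and S100a9 groups were CT26.WT cultures kept without serum for 12 h, then given 4 µg/ml of the mouse protein for 24 h. The control group was CT26.WT cells, also kept without serum for 12 h, that the design text describes as given normal saline in serum-free medium. Its sample title names BSA instead, and the time of its mock exposure was not given separately. Both are alarmins of the S100 family, calcium binders that neutrophils and monocytes secrete in inflamed tissue. Each group held 1 culture on 1 Affymetrix Mouse Genome 430 2.0 array, so there were no replicates, no test was possible, and every difference below lies between single arrays of 1 cell line.

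In the canonical Wnt pathway, a Wnt ligand joins a Frizzled receptor to an Lrp5 or Lrp6 coreceptor, and Dishevelled proteins carry the signal inward. Without ligand, Axin and Apc hold beta-catenin for phosphorylation by the kinases Csnk1a1 and Gsk3b, which marks it for degradation. Stabilised beta-catenin enters the nucleus and activates genes through TCF/LEF factors. In the intestine this signal maintains the crypt stem cells, and in most human colorectal cancers it is switched on by mutation of the pathway.

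The values were MAS5 signals on a linear scale, with medians of 78.6 (S100a8), 73.6 (S100a9) and 76.1 (control). Signals below a floor of 76.0, the 50th percentile of all signals, were set to the floor before log2 ratios were taken. A gene was represented by its brightest probe set and compared when the mean log2 signal of that probe set lay above the floor, which held for 11139 genes. Of the 40 named members, 26 were compared (65%, against 61.2% of all named genes). Among these, Sfrp1 passed through its S100a8 signal alone, so it could only lie above control there, and counts are also given for the other 25. The other 14 lay below the floor on each array, with signals from 9.68 to 64.3, where MAS5 signals are noisy and give no usable ratio. A difference of at least 1.5-fold was used as a descriptive size. Signals of different probe sets are not on a common scale, so no level is set against that of another gene.

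Few Wnt genes differed from control by that size. With S100a8, 1 of the 26 compared members was at least 1.5-fold higher than control, the ligand gene Wnt7b, while 1.13% of all compared genes were that much higher. None was at least 1.5-fold lower (0 of 26, against 1.91% of all compared genes), although Dvl1 lay just inside that mark at 1.4999-fold lower. With S100a9, 0 of 26 members were at least 1.5-fold higher or lower, while 0.251% and 0.853% of all compared genes were. The nearest members short of the mark with S100a8 were Dvl1, the inhibitor gene Sfrp1 (at least 1.49-fold higher) and the target and inhibitor gene Axin2 (1.46-fold higher). No member reached 2-fold in these comparisons, a size that 0.0449% of all compared genes reached upward and 0.287% downward with S100a8, and 0.00898% and 0.144% with S100a9.

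The middle of the list lay close to the middle of all genes. The median log2 ratio of the members was 0.021 with S100a8 and 0.039 with S100a9, and over all compared genes it was 0.012 and 0.0045. With S100a8, 15 of 26 members were above control by any amount and 11 below (14 and 11 of 25 without Sfrp1). Over all compared genes, 52.5% were above and 47.5% below. With S100a9, 16 members were above, 9 below and 1 at the floor on both arrays, against 51.2% above and 48.1% below over all genes. At 1.25-fold, a size added after the values were seen, 6 members were higher with S100a8 (Wnt7b, Sfrp1, Axin2, Ascl2, Tcf7l1 and Lgr4; background 9.48%; 5 of 25 without Sfrp1) and 2 were lower (Dvl1 and Lef1; background 8.01%). In the dimmest 25% of compared genes, 4 of 6 members (Sfrp1 among them) and 640 of 2785 genes were at least 1.25-fold higher with S100a8. With S100a9 the same size held for 1 higher member, Wnt4 (background 3.23%), and for 0 lower members (background 5.04%).

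**Figure D1:**
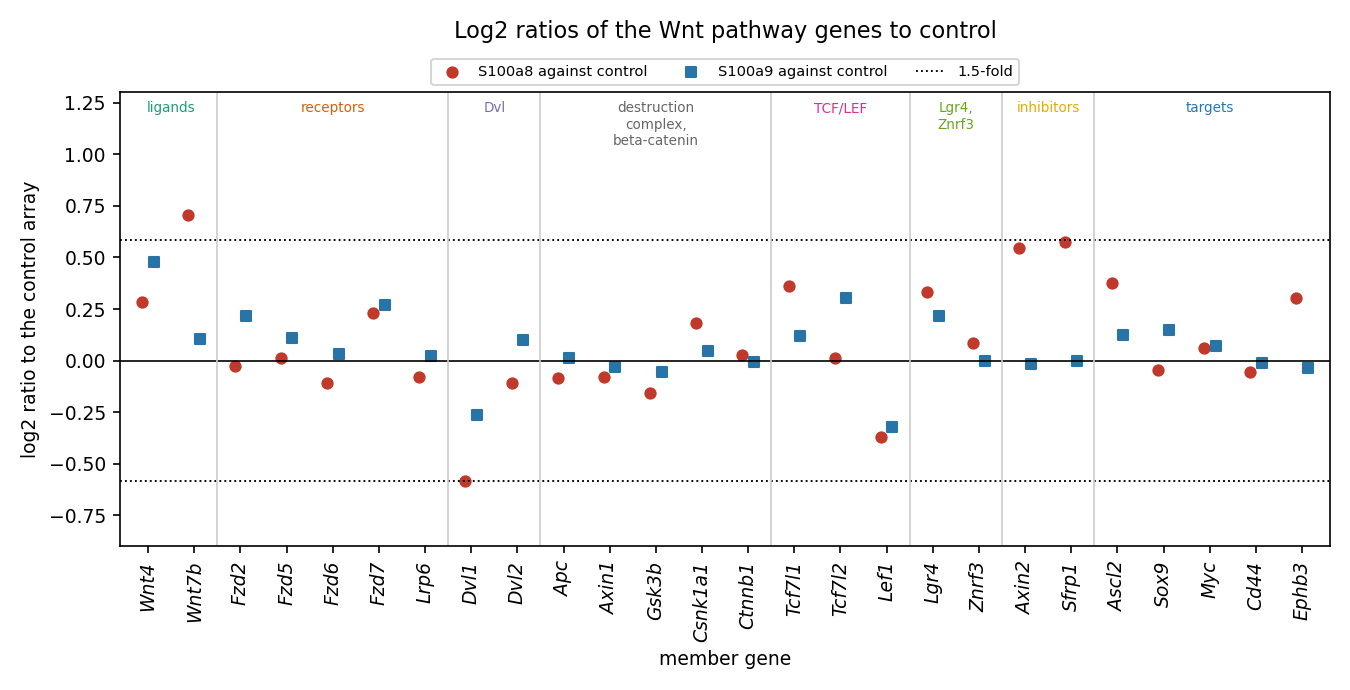
Log2 ratio of each compared member to the control array (y axis) for S100a8 (red circles) and S100a9 (blue squares), by role group along the x axis; dotted lines mark 1.5-fold and each point is 1 array against 1 array. Wnt7b with S100a8 (0.71) is the 1 point beyond a line, Dvl1 and Sfrp1 with S100a8 lie just inside, and the destruction complex genes lie between -0.16 and 0.18.

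Promoter sequences are shown for the compared members at the ends of the S100a8 ratios for which RefSeq gave an entry, Dvl1 (lowest) and Axin2 (highest), and for the 1 compared member with a TCF/LEF motif in its window, Fzd7. RefSeq promoter entries (build GRCm38.p6) matched 26 of the 42 genes. Each sequence covers the 250 bases before the annotated start, 5′ to 3′ on the gene's strand. Capitals mark a match on either strand to a TCF/LEF motif, searched as CTTTGAA and as CTTTGAT, with their variants written CTTTGTA and written CTTTGTT.
Dvl1, chr4:155847152-155847401, plus strand: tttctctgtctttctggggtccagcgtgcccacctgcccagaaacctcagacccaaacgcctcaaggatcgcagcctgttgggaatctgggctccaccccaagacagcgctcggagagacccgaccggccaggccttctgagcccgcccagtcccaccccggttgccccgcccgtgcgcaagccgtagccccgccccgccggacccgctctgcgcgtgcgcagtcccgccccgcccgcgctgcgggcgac
Axin2, chr11:108920099-108920348, plus strand: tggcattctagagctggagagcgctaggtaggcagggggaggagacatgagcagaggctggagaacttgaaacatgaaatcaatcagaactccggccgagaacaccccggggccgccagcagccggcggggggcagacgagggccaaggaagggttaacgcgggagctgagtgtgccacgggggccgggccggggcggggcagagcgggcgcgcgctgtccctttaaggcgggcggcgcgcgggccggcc
Fzd7, chr1:59481897-59482146, plus strand: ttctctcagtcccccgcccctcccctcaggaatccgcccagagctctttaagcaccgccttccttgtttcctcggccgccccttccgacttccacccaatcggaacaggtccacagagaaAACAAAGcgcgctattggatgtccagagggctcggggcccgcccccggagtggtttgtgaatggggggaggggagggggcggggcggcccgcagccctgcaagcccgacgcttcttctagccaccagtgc
The match in the Fzd7 window is CTTTGTT on the opposite strand and begins 130 bases before the start. Of the 26 member promoters, 3 held such a match (Wnt11, Fzd7 and Dkk1, 11.5%), against 14.9% of the windows of 27025 genes. The windows of Dvl1 and Axin2 held 0 matches. Member windows were rich in G and C, with a median of 68% against 52% over all genes, and Dvl1, Axin2 and Fzd7 had 71.2%, 69.2% and 65.2%. A match is a run of letters and not a measured binding site.

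Of the 5 Wnt ligand genes, Wnt4 and Wnt7b were compared, and Wnt5a, Wnt5b and Wnt11 lay below the floor on each array (17.6 to 64.3). Wnt7b, a ligand of the canonical pathway, read 240.1 under S100a8, 158 under S100a9 and 147 in the control. The S100a8 array thus stood above the S100a9 and control arrays, which lay close together. The log2 ratio was 0.71 with S100a8 (1.63-fold higher, 41st highest of the 11139 compared genes) and 0.10 with S100a9. Wnt7b lies in the dimmest 25% of compared genes, where the S100a8 array ran high as a whole, and its ratio was 0.63 after centring by brightness. Its second probe set was below the floor on each array, so the difference rests on 1 probe set. Wnt4, a ligand best known from kidney and gonad development, read 143 under S100a8, 163 under S100a9 and 117 in the control. Both treated arrays lay above control, with ratios of 0.28 and 0.48, and the S100a9 ratio was the largest of any member in that comparison. The second Wnt4 probe set had 91.6, 63.1 and 65.7 and did not share the S100a9 difference.

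**Figure D2:**
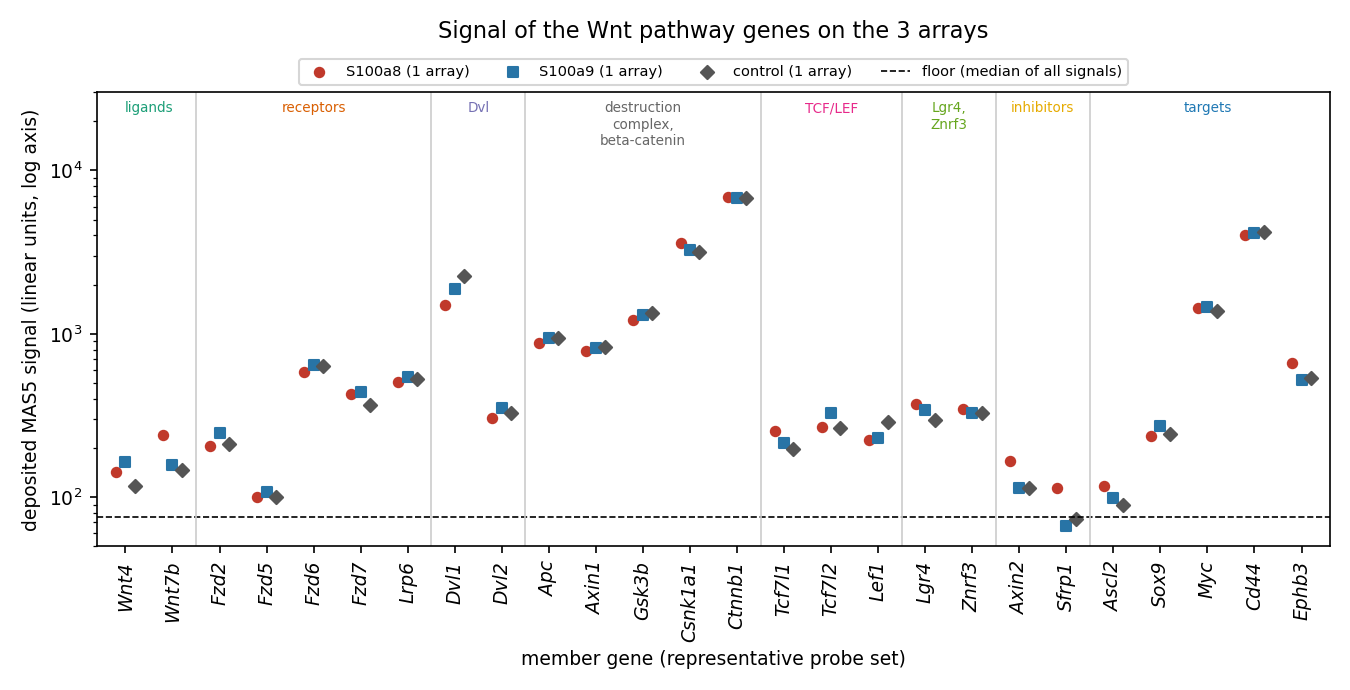
Deposited MAS5 signal (y axis, log scale) of the representative probe set of each compared member on the S100a8 (red circles), S100a9 (blue squares) and control (grey diamonds) arrays, 1 array each, with the floor of 76.0 dashed. Wnt7b, Axin2 and Sfrp1 show a raised S100a8 point beside near-equal S100a9 and control points, and Dvl1 is highest in the control and lowest under S100a8; heights are not comparable between genes.

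Of the 9 receptor genes, Fzd2, Fzd5, Fzd6, Fzd7 and Lrp6 were compared, and Fzd1, Fzd4, Fzd8 and the coreceptor gene Lrp5 lay below the floor (15.1 to 57.9). Fzd7, a Frizzled receptor of intestinal stem cells, read 429 under S100a8, 440.0 under S100a9 and 365 in the control. Both treated arrays were above control by a similar amount, 0.23 and 0.27, and its second probe set was below the floor. Fzd2 had 207, 245 and 211, with the S100a9 array highest (ratio 0.22) and the S100a8 array at control (-0.027). Its further probe sets gave 0.09 and 0.05 with S100a9, so all 3 pointed the same way by smaller amounts. The remaining receptors stayed near control. Fzd6, which can also act in planar cell polarity, had 587, 647 and 632. The coreceptor gene Lrp6 had 504, 540.0 and 532, and Fzd5, at 100.3, 108 and 99.5, lay close above the floor. On the brightest probe sets, all 5 receptor ratios were at or above 0.022 with S100a9 (median 0.11). Over all compared genes, 51.2% lay above control with S100a9. The second probe sets of Fzd6 and Lrp6 lay below control with S100a9, at -0.047 and -0.053. With S100a8 the 5 ratios ran from -0.11 to 0.23 (median -0.027).

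The Dishevelled genes held the lowest S100a8 ratio of the list. Dvl1 read 1509.8 under S100a8, 1888 under S100a9 and 2265 in the control. The arrays were ordered S100a8 below S100a9 below control, with log2 ratios of -0.58 and -0.26. Its second probe set, with 682, 713 and 861, gave -0.34 and -0.27. Both probe sets were therefore below control under either protein, although they differ in how far S100a8 lay below S100a9. Dvl1 is among the brightest 25% of compared genes, and the S100a8 ratio lay outside the middle 95% of genes of like brightness (-0.39 to 0.30). It was the 214th lowest of the 11139 compared genes. Dvl2 had 304, 350.4 and 327, with ratios of -0.11 and 0.098, so its treated arrays lay on either side of control. Dvl3 lay below the floor, at 44.3, 40.5 and 45.6.

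The destruction complex and beta-catenin genes lay close to control on their brightest probe sets, and all 5 were above the floor. Ctnnb1, which encodes beta-catenin, read 6917, 6752 and 6788 (S100a8, S100a9, control, the order used from here on). The scaffold gene Apc had 882, 943 and 936, and the scaffold gene Axin1 had 788, 817 and 834. For these 3 genes, log2 ratios lay between -0.085 and 0.027. The kinase gene Gsk3b had 1207, 1297 and 1345, with ratios of -0.16 and -0.053. Csnk1a1, the kinase that primes beta-catenin, had 3574, 3249 and 3148 on its brightest probe set, or 0.18 and 0.045. The group's median ratio was -0.081 with S100a8 and -0.0076 with S100a9.

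Probe sets of the same destruction complex gene differed more than these medians. The 4 probe sets of Csnk1a1 above the floor ran from -0.72 to 0.18 with S100a8 and from -0.52 to 0.05 with S100a9. Its lowest probe set had signals of 135, 154 and 221, and the brightest was the only one of the 4 above control. The 6 Gsk3b probe sets ran from -0.52 to 0.07 with S100a8 and from -0.32 to 0.12 with S100a9. For Apc, 2 probe sets lay at -0.085 and -0.10 with S100a8 and the third at -0.53 (signals of 244, 282 and 352). The 3 Ctnnb1 probe sets ran from -0.36 to 0.11. In 12 members, several probe sets lay above the floor, and they all pointed the same way for 6 genes with S100a8 (Fzd6, Lrp6, Dvl1, Apc, Axin1 and Tcf7l2) and for 4 with S100a9 (Fzd2, Dvl1, Tcf7l2 and Sox9). Dvl1 and Tcf7l2 were in both of these lists of genes that pointed the same way. Over those 12 members, the pooled SD of the log2 ratio between probe sets of a gene was 0.20 with S100a8 and 0.13 with S100a9. Of the 26 member ratios, 15 and 18 were smaller than that. The same counts were not taken over all compared genes, so they are not read as particular to the Wnt genes.

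**Figure D3:**
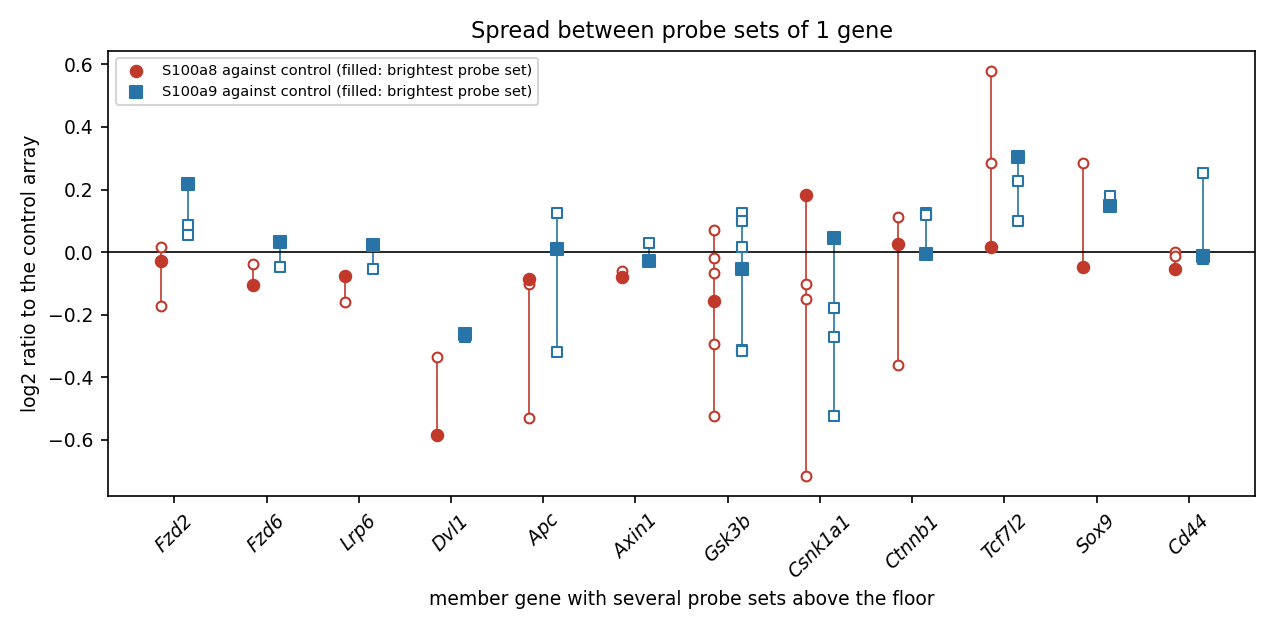
Log2 ratio to control (y axis) of every probe set above the floor for the 12 members with more than 1, for S100a8 (red circles) and S100a9 (blue squares); filled points are the brightest probe set and lines join the lowest and highest. Both Dvl1 probe sets lie below 0 in both comparisons, while Csnk1a1 runs from -0.72 to 0.18 with S100a8.

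The TCF/LEF factor genes went different ways. Lef1, an activating partner of beta-catenin, read 224 under S100a8, 232 under S100a9 and 289 in the control. Both treated arrays were lower by a similar amount, -0.37 and -0.32, and its second probe set was below the floor. Tcf7l1, mostly a repressor of Wnt targets, had 255, 216 and 198. It went the other way, with ratios of 0.36 and 0.12, and its second probe set was below the floor. Tcf7l2, the main TCF factor of the intestinal epithelium, had 267, 327 and 264 on its brightest probe set, or 0.015 with S100a8 and 0.31 with S100a9. Its other 2 probe sets above the floor put the S100a8 array highest instead, at 0.28 and 0.58 against 0.10 and 0.23 with S100a9. All 3 lay above control under either protein, but which protein gave the higher signal depended on the probe set.

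Among the R-spondin receptors and ubiquitin ligases, Lgr4 and Znrf3 were compared. Lgr4, a receptor for R-spondins, which strengthen Wnt signals, had 372, 344 and 296. Both treated arrays were above control, at 0.33 and 0.22, and the second Lgr4 probe set was below the floor. Znrf3, a ligase that removes Frizzled receptors from the cell surface, had 347, 326 and 326, with ratios of 0.088 and -0.0039. Its second probe set was below the floor. The intestinal stem cell gene Lgr5 (42.1 to 44.1) and the ligase gene Rnf43 (10.4 to 15.4) lay below the floor on each array.

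The feedback inhibitors are genes that Wnt signalling induces or that block its ligands, and they were dim. Axin2, a scaffold of the destruction complex and a widely used readout of Wnt signalling, read 167 under S100a8, 113 under S100a9 and 115 in the control. The S100a8 array was thus above 2 near-equal arrays, with ratios of 0.55 and -0.015. Centring by brightness brought the S100a8 ratio to 0.43, and it lay within the middle 95% of genes of like brightness (-0.59 to 0.64). The second Axin2 probe set was below the floor, between 21.6 and 25.6, with the S100a9 array highest. Sfrp1, a secreted Wnt antagonist, read 113 under S100a8, 66.5 under S100a9 and 73.0 in the control. The last 2 lie below the floor, so the S100a8 signal was at least 1.49-fold higher than control, and the 4 further Sfrp1 probe sets were below the floor on each array. Nkd1, Notum and Dkk1, which restrain Wnt signalling at Dishevelled, at the ligand and at the coreceptor, lay below the floor (9.68 to 55.5).

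In the target group, differences from control were small on the brightest probe sets, and widest at Ephb3 and Ascl2 with S100a8. Myc, which drives growth and proliferation, had signals of 1443, 1454 and 1383, with ratios of 0.061 and 0.072. Cd44, the hyaluronan receptor, had 4041, 4160 and 4197, with -0.054 and -0.013. These 2 genes and Sox9, a crypt transcription factor with 237, 271 and 245 (-0.047 and 0.15), were within 0.15 of control on their brightest probe sets. Further probe sets differed more. A second Sox9 probe set, with 225, 209 and 185, was at 0.29 and 0.18, and a Cd44 probe set with 642, 770.1 and 647 was at -0.012 and 0.25. Ephb3, which positions cells along the crypt, had 659, 520.5 and 534, with 0.30 for S100a8 and -0.037 for S100a9. Ascl2, a transcription factor of intestinal stem cells, had 117, 98.3 and 90.1, close above the floor, with 0.38 and 0.13. Its further probe sets were below the floor on each array (6.58 to 15.3). Centring by brightness left 0.34 for Ephb3 and 0.19 for Ascl2 with S100a8. Tnfrsf19, a receptor of the tumour necrosis factor family, lay below the floor (38.5 to 43.0). The group's median was 0.061 with S100a8 and 0.072 with S100a9.

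The members with the highest S100a8 ratios were mostly dim ones. On the S100a8 array, dim signals ran high over the whole array: the median log2 ratio was 0.14 over the dimmest 25% of compared genes and -0.012 over the rest. The 6 members in this dimmest part (Wnt4, Wnt7b, Fzd5, Axin2, Sfrp1 and Ascl2) all lay above control, with a median of 0.46, or 0.38 for the 5 without Sfrp1. Over all genes of this part, 1919 of 2785 lay above control. The 6 members in the brightest 25% (Dvl1, Gsk3b, Csnk1a1, Ctnnb1, Myc and Cd44) had a median of -0.014. With S100a9 the medians of the same members were 0.11 and -0.010, and the dimmest genes as a whole were at 0. The part of this shift in the member ratios was not tested beyond the centring by brightness given with them. Outside the middle 95% of compared genes of like brightness lay Wnt7b and Dvl1 with S100a8 (2 of the 25 members without Sfrp1) and Wnt4 with S100a9 (1 of 25).

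**Figure D4:**
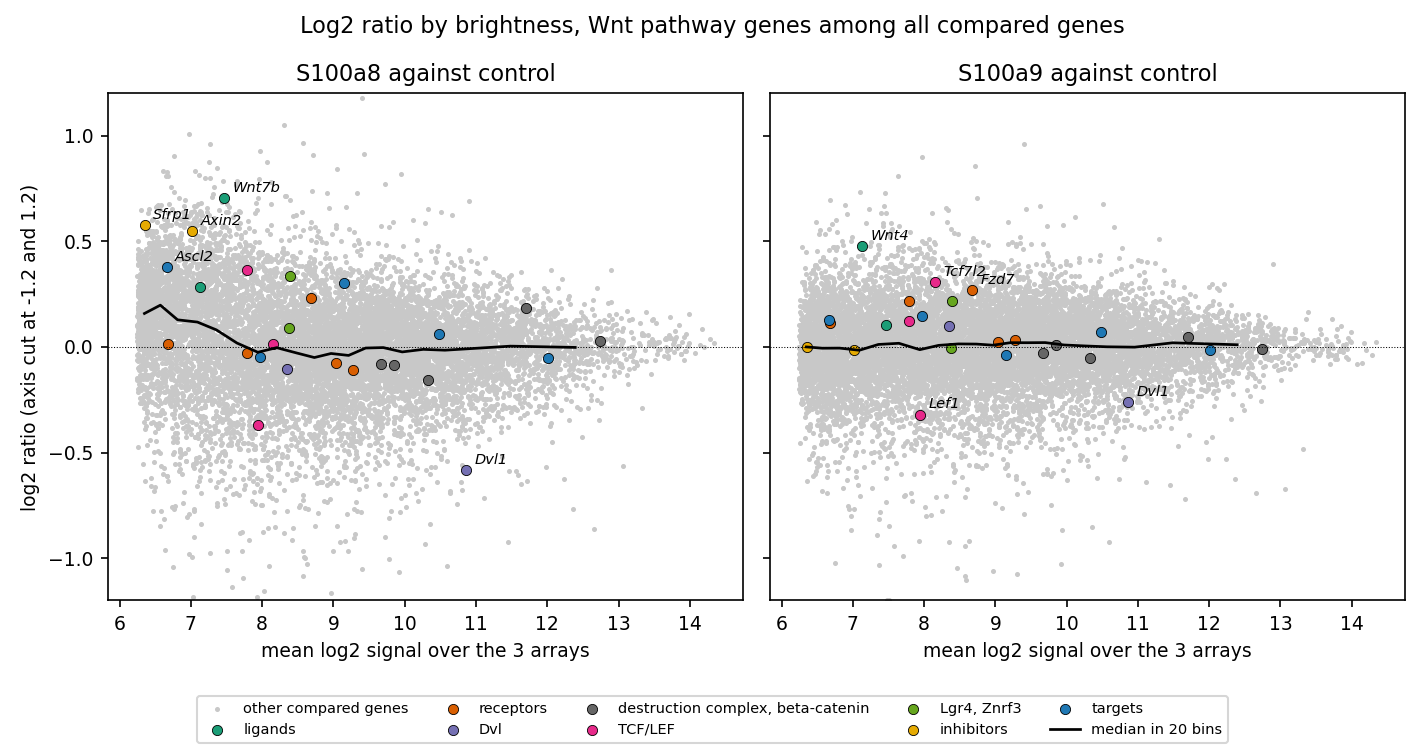
Log2 ratio to control (y axis, cropped) against the mean log2 signal over the 3 arrays (x axis) for S100a8 (left) and S100a9 (right), with members coloured by role, other compared genes in grey and the median of 20 brightness bins as a line. The line rises at the dim end with S100a8 and not with S100a9, Wnt7b, Axin2, Sfrp1 and Ascl2 lie at that dim end, and Dvl1 lies near the lower edge of the cloud among bright genes with S100a8.

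Set directly against each other, and with Sfrp1 left out, the proteins gave the widest ratios at Wnt7b and the inhibitor gene Axin2, both dim. Wnt7b was 1.52-fold lower with S100a9 than with S100a8 (log2 ratio -0.60), the 1 member of 26 past 1.5-fold lower, where 1.01% of all compared genes lay. None was at least 1.5-fold higher (0 of 26; background 0.0988%), and none reached 2-fold (background 0% higher and 0.018% lower). Sfrp1 was at least 1.49-fold lower, but it passed the filter through its S100a8 signal alone, so it could only lie lower here. Axin2 was at -0.56. Ephb3 followed at -0.34, and Dvl1 was the member highest with S100a9 on the brightest probe sets (0.32). The second Dvl1 probe set was at 0.064. The dimmest 25% of compared genes as a whole had a median of -0.12 here, against 0.037 for the rest. Wnt7b and Axin2 lay within the middle 95% of genes of like brightness (-0.62 to 0.36 and -0.62 to 0.39), and Dvl1 and Ephb3 lay outside it (-0.24 to 0.21 and -0.28 to 0.30). At 1.25-fold, 4 members were lower (background 7.82%; 3 of 25 without Sfrp1) and 1 was higher (background 2%). In the dimmest 25% of compared genes, 3 of 6 members (Sfrp1 among them) and 634 of 2785 genes were at least 1.25-fold lower. By any amount, 16 members were higher and 10 lower (16 and 9 of 25 without Sfrp1), against 54.9% and 45.1% of all compared genes. The members' median was 0.045, against 0.018 over all compared genes. This comparison uses the same 2 treated arrays as the ones with control, so it adds no independent observation.

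A wider list of 94 further Wnt genes was read the same way, and 61 of them were compared. Each was read on its brightest probe set alone, and agreement with further probe sets was not examined. Their median log2 ratio was 0.0039 with S100a8 (32 above control, 29 below, against 52.5% and 47.5% of all compared genes) and -0.045 with S100a9 (25 above, 36 below, against 51.2% and 48.1%). At least 1.5-fold higher with S100a8 was 1 gene, Id2 (background 1.13%), and at least 1.5-fold lower were 2, Apcdd1 and Wnt10a (background 1.91%). With S100a9 there were 0 and 0 (background 0.251% and 0.853%). Apcdd1, a membrane inhibitor of Wnt signalling and itself a Wnt target, read 926 under S100a8, 1035 under S100a9 and 1426 in the control. Wnt10a, a canonical ligand, had 310.1, 334 and 473. Both were therefore lower on the S100a8 and S100a9 arrays alike, with ratios of -0.62 and -0.46 for Apcdd1 and of -0.61 and -0.50 for Wnt10a. Dkk2, a secreted modulator of Lrp6, had 117, 102 and 152 and the lowest S100a9 ratio of the wider list (-0.57). Dact3, an inhibitor that acts on Dishevelled, had 685, 749 and 532 and the highest (0.49). Next to it was the receptor gene Fzd3 (0.40 with S100a9, 0.074 with S100a8). Id2, a helix-loop-helix inhibitor that BMP signalling also induces, was at 0.59 with S100a8 and 0.23 with S100a9. Rspo2, an R-spondin that binds Lgr4, had 272, 174 and 190.0. It was above control with S100a8 (0.52) and below it with S100a9 (-0.12).

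Markers of cell type were read beside these genes. Of 8 epithelial markers, 3 were above the floor (Krt18, Epcam and Cdx2), and Cdh1, Vil1, Krt8, Krt19 and Cldn7 were below it, so most of the defining epithelial transcripts were not above the floor despite the carcinoma label. Of 6 mesenchymal markers, 5 were above, including Vim (15811, 15407 and 16033). The summed signals of the epithelial list were 1468, 1628 and 1817, and those of the mesenchymal list 24046, 24229 and 24889. These sums hide unequal members. Krt18 was below control (log2 ratio -0.49 with S100a8, -0.23 with S100a9), while Epcam was at 0.16 and -0.24 and Cdx2 at 0.28 and 0.11. The mesenchymal gene Pdgfrb, with signals of 426, 476 and 808, was at -0.92 and -0.76, and Dcn, with 157, 243 and 296, at -0.92 and -0.28. Both lay further below control with S100a8 than any Wnt member, while Vim, Col1a1 and Col1a2 were between -0.13 and -0.016. The macrophage and granulocyte list summed to 1034, 952 and 743, with Ptprc, Adgre1 and Itgam below the floor and Cd68, Csf1r and Lyz2 above it (ratios of 0.63, 0.47 and 0.20 with S100a8 and of 0.53, 0.23 and 0.45 with S100a9). The lymphoid list (3 of 3 named genes above the floor) summed to 1051, 855 and 911, and the endothelial list (2 of 4 above) to 328, 282 and 287. No marker was listed at 0. The labels name 1 cell line and no mixture of cell types, so these markers are read as transcripts and not as shares of cell types. The part of these markers in the Wnt gene ratios was not tested. In bulk RNA, fewer cells expressing a marker and less of its RNA per cell cannot be told apart. Among spike-in controls, 24 poly-A probe sets had a median log2 ratio to control of 0.12 (SD 0.12) under S100a8 and of 0.28 (SD 0.096) under S100a9, and 18 hybridization probe sets had 0.019 (SD 0.043) and -0.013 (SD 0.078).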

How the data were processed

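The authors deposited MAS5 probe set intensities on a linear scale, per the submitters' processing notes, for 45101 probe sets on 3 arrays; the MAS5 version and its target value: not given in the sources used here. Per the labels' protocols, cRNA was biotin-labelled from 1 µg of Trizol-extracted RNA. MAS5 subtracts mismatch signal, so dim values are noisy, and scaling hides changes in total RNA per cell. Names came from the supplied platform annotation: 34958 probe sets had 1 symbol, 932 several and 9160 were not listed; the last 2 kinds were not used. Intensities were floored, log2 was taken, and ratios were computed over all named genes (Python 3.11.15, pandas 2.3.3, numpy 2.4.6). Every member was to be named, and from the wider list for each protein the 2 genes at either end of the ratios, if both arrays exceeded the floor. The members and lists were chosen with earlier results of these data known. Brightness was centred in 20 bins of mean signal. Alternatives covered the floor, scaling, probe set choice, filter and size. The scripts were tested on simulated data, with planted changes larger than any member ratio here and only in genes brighter than the dimmest members. That test does not show how differences of the size seen here are recovered. Precision is limited by having 1 array per group.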

Additional observations from a re-analysis of the deposited data

How the results depend on the processing

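Of 717 single-member values under the alternatives, 702 moved by less than the SD between probe sets of a gene, and 15 moved more. Of 225 role group medians, 200 stayed and 25 moved. A change of floor or filter cannot move the ratio of a member whose signals exceed every floor used. Many of these values were therefore fixed in advance, and the counts do not measure how robust the ratios are. Ratios changed sign under at least 1 alternative for 6 of 26 members with S100a8 (Csnk1a1, Ctnnb1, Fzd2, Fzd5, Sox9 and Tcf7l2; 0.18 or less in size), for 10 with S100a9 (Apc, Axin1, Axin2, Cd44, Csnk1a1, Ctnnb1, Ephb3, Fzd6, Lrp6 and Znrf3; 0.045 or less) and for 6 between the proteins (Ctnnb1, Fzd7, Myc, Tcf7l2, Wnt4 and Znrf3; 0.29 or less). For S100a8 against control, the members' median (0.021) came to -0.027 with each probe set counted singly or a 65th percentile floor, -0.049 with the mean of all probe sets, -0.025 with median centring (where that of all genes was -0.034) and -0.054 with only genes above the 75th percentile. Higher members numbered 6 at 1.25-fold, 0 at 2-fold, 2 (Wnt7b and Sfrp1) with the floor at the 30th percentile or no floor, and 0 with the mean of all probe sets or above the 75th percentile. Lower members numbered 2 at 1.25-fold and 1 with median centring (Dvl1) or each probe set counted singly (Csnk1a1). For S100a9 against control, the median (0.039) was 0.087 with median centring and 0 with no filter, and 1 member was higher at 1.25-fold. For S100a9 against S100a8, the median (0.045) was 0.14 with median centring, which moved the median of all genes to 0.11, and 0 with no filter. Higher members numbered 1 at 1.25-fold. Lower members numbered 4 at 1.25-fold, 2 with the floor at the 30th percentile or no floor, and 0 at 2-fold, with the mean of all probe sets, median centring, centring by brightness or above the 75th percentile. Leaving out Sfrp1 gave medians of 0.015, 0.045 and 0.048 and no other count at 1.5-fold. The 1.25-fold size, the single probe set count and the omission of Sfrp1 were chosen after seeing the data. Wnt7b was not compared with the mean of all probe sets (21 members compared) or above the 75th percentile (15 compared), so it has no value there. The same holds for other members that a setting left out. Otherwise the cause was not tested. Sfrp1, Ascl2, Fzd5, Axin2 and Wnt4 lie close to the floor, where signals are noisy. The part of this noise in their ratios was not tested.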
